A study of Mus musculus with 12 samples.

Results

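The genes described here are 10 that detect double-stranded RNA or pass that signal on: *Tlr3*, *Ticam1*, *Ddx58*, *Ifih1*, *Mavs*, *Irf3*, *Irf7*, *Eif2ak2*, *Adar* and *Zbp1*. They were taken by gene symbol from a table of 21859 genes, and 10 of 10 were found. They were chosen by the measured values of this comparison, since the control to cryptorchid difference of *Tlr3* in these same libraries was already known, so the differences of the 10 genes are given as a description, without a test. All 10 were among the 16932 genes with a log2 of the mean level above -1. *Zbp1* passed that limit through its control libraries, because its mean in the cryptorchid libraries alone was below it.

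The cells were GFRa1+/KIT- spermatogonia, the undifferentiated germ cells of the testis that include its stem cells. They were sorted from adult mice 8 to 10 weeks old that carry GFRa1-EGFP, a fluorescent reporter of the GDNF receptor gene *Gfra1*, and the labels give the genotype of every library as WT. In the cryptorchid group, surgery had held the left testis in the warmer abdomen, and cells were taken on day 10. The right testis was the control. Each of the 5 control and 7 cryptorchid libraries was made by Smart-seq2 from the RNA of about 200 cells. Control testes were digested for 9 min at 32°C and cryptorchid testes for 9 min at 37°C, so the surgery and the digestion temperature cannot be told apart. Libraries are named by group and replicate number.

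Double-stranded RNA is rare in healthy cells and is a mark of viral infection, although transcripts of a cell's own repeats can also form it. TLR3 meets it inside endosomes and signals through the adaptor TICAM1 (TRIF), whereas RIG-I (from *Ddx58*) and MDA5 (from *Ifih1*) meet it in the cytosol and signal through MAVS on mitochondria. Both routes activate IRF3 and IRF7, which switch on type I interferon genes, and the TLR3 route can also lead to cell death. PKR (from *Eif2ak2*) stops translation when it binds double-stranded RNA, ADAR edits adenosines in such RNA so that it is no longer seen as foreign, and ZBP1 binds left-handed nucleic acid helices and can start necroptosis.

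Expression was measured as log2 RPM, the log2 of a gene's reads scaled to the library's mapped reads, in which a library without a read of a gene has a value equal to 0.9 reads. Reads on genes numbered 4511730 to 24345368 in control libraries and 3306771 to 20027902 in cryptorchid libraries. The libraries fell into sets at replicate 3: replicates 1 to 3 of both groups had 74.5% to 94.0% of their reads on genes, and replicates 4 and above had 94.8% to 99.9%. Differences are therefore also given within each set. Markers of undifferentiated spermatogonia were present in every library, with a summed level of 1263 to 1956 RPM in control and 1516 to 2307 RPM in cryptorchid libraries, and 0 of these 12 genes passed the test below. The libraries came from bulk cells, in which fewer cells of a type and less RNA per cell cannot be told apart. The reads carried no molecular identifiers, so read numbers and the limits they set cover counting error only; a library without a read of a gene allows up to 3 reads.

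Over all genes, limma found 603 genes at least 2-fold higher in cryptorchid libraries with an unadjusted *P*-value under 0.05, which is 3.56% of the genes tested, and 399 lower, which is 2.36%. Of these calls 60.2% were higher, and after quantile normalization 45.7% were. Among the 10 genes described here, 1 was called higher (*Tlr3*), 1 was called lower (*Zbp1*) and 8 were not called. Since the genes were chosen with this comparison in view, nothing is read from these counts. At a Benjamini-Hochberg adjusted *P*-value under 0.05 limma called 2 genes in all, 0.0118% of those tested, and neither was among the 10. Fits with a block for replicate number or with array weights called more genes, as given at the end. At an unadjusted *P*-value under 0.05, without the fold limit, 9.48% of genes passed. The groups did not overlap for 0.555% of the genes tested with the cryptorchid libraries above and for 0.283% with them below, and for 0 of the 10 did they separate in this way. The median log2 difference of the 10 was 0.05, beside 0.10 over all genes tested, with a range of -2.67 to 4.13, and 5 of 10 had a higher mean in the cryptorchid libraries.

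*Tlr3*, the endosomal receptor, had the widest difference of the 10. In the control libraries its level was -3.61, -0.85, 3.85, -2.46 and 2.35 log2 RPM in replicates 1 to 5, from 2, 16, 147, 1 and 23 reads. In the 7 cryptorchid libraries it was 3.93, 2.01, 3.66, 4.47, 4.72, 4.70 and 4.43 log2 RPM in replicates 1 to 7, from 45 to 341 reads. Every library of both groups thus held the transcript. Control libraries were spread from almost no reads to a level seen in cryptorchid libraries, whereas the lowest number in a cryptorchid library was 45 reads. Of the 7 cryptorchid libraries, 5 lay above the highest control, and 3 of the 5 controls lay below the lowest cryptorchid library. Controls averaged -0.14 ± 3.16 (SD, n = 5) and cryptorchid libraries 3.99 ± 0.957 (SD, n = 7). This is a log2 difference of 4.13 with a standard error of 1.04. Standard errors here and below are those of the limma fit, which draws each gene's variance toward that of genes at a similar level. They are therefore not those that the SDs of a gene alone would give. On the linear scale the means were 4.06 and 18.3 RPM, a ratio of 4.5, and the 2 control libraries above 2 log2 RPM carried most of the control mean. Within the sets, the log2 difference was 3.40 for replicates 1 to 3 and 4.64 for replicates 4 and above, and in the first set alone *Tlr3* was not called. It was 5.13 without control replicate 3, 4.76 without control replicate 5 and 3.27 without control replicate 1.

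*Tlr3* lies at chr8:45395665-45411080 on the minus strand of GRCm38, with 7 exon blocks of 4896 bases in all. An antisense transcript, *Gm45542*, overlaps 240 of these bases (4.9%), and reads from the 2 strands cannot be separated in Smart-seq2 libraries. The nearest other protein-coding gene, *Fam149a*, lies 13374 bases away. Its log2 difference was 1.50 with a standard error of 0.843, and it was not called. On the other side, *Sorbs2* had a log2 difference of -0.11 with a standard error of 0.428.

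The 250 bases before the RefSeq start of *Tlr3*, at chr8:45410381-45410630 on the minus strand of GRCm38.p6, are shown because *Tlr3* had the widest difference. This RefSeq start lies 700 bases inside the GENCODE span given above, so the bases shown fall within that span.
Tlr3: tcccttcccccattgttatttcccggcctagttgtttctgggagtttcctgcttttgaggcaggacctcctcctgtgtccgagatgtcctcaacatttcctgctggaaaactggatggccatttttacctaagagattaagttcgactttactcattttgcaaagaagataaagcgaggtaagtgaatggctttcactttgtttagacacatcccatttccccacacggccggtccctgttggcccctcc
The element TTTC, any 2 bases and TTTC again, to which interferon regulatory factors bind, was searched on both strands from 250 bases before to 50 bases after each start. An exact match stood in 3.44% of the 32851 promoters in the RefSeq table. Of the 10 genes, 9 had a promoter there (11 windows in all) and 3 held a match: *Ifih1*, *Ddx58* and *Eif2ak2*. The window of *Tlr3* held none, which says only that these letters are not in it. *Zbp1* had no entry.

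The 3 matches are shown in capitals within 30 bases of the gene's own strand, all of it on the minus strand, at chr2:62646206-62646235 for *Ifih1*, chr4:40239804-40239833 for *Ddx58* and chr17:78882535-78882564 for *Eif2ak2*.
Ifih1: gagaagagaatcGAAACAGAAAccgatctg
Ddx58: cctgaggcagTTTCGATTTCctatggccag
Eif2ak2: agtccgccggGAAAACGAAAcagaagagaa
Counting from 1 at the start of transcription, the match begins at base 33 in *Ifih1*, base 3 in *Ddx58* and base 19 in *Eif2ak2*, so each lies in transcribed sequence. None of these 3 genes was called in either direction. A match is a description of the letters and not evidence that a factor binds there.

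*Ticam1*, the adaptor through which TLR3 signals, averaged 0.14 ± 1.59 log2 RPM (SD, n = 5) among controls and 0.48 ± 1.65 (SD, n = 7) among cryptorchid libraries. Its log2 difference was 0.34 with a standard error of 0.948. Both groups spanned most of the range: control libraries lay between -2.61 and 1.53 log2 RPM and cryptorchid libraries between -1.92 and 2.36, and 1 library in each group had no read. The receptor and its adaptor followed each other little across the libraries, with a Pearson's *r* of 0.22 over 12 libraries that share their depth and group.

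**Figure D1:**
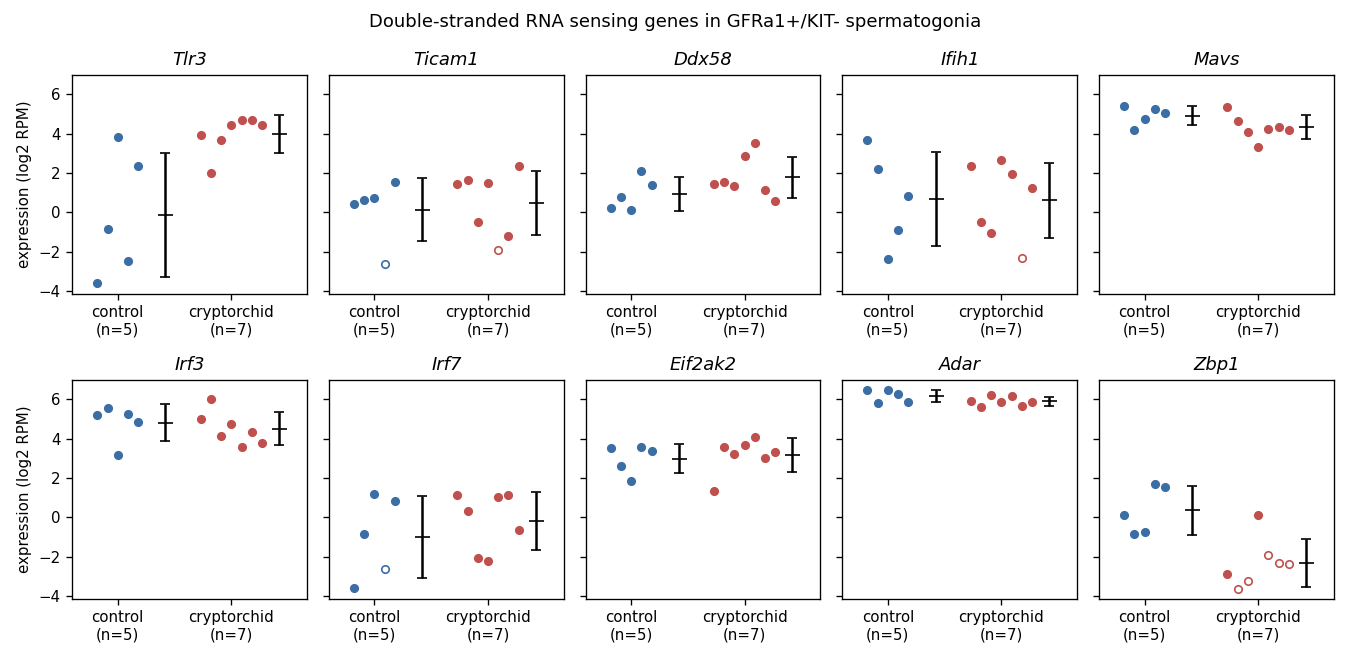
Expression of the 10 genes in log2 RPM (vertical axis) in 5 control and 7 cryptorchid libraries, in order of replicate number from left to right. Each circle is a library, an open circle is a library without a read, and the bar beside each group is the mean and SD; the 7 cryptorchid values of *Tlr3* sit between 2.01 and 4.72, and 5 of 7 cryptorchid libraries have no *Zbp1* read.

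The cytosolic sensors were not called. *Ddx58*, which encodes RIG-I, had 0.20, 0.80, 0.11, 2.13 and 1.41 log2 RPM in control replicates 1 to 5, and in cryptorchid libraries its lowest, median and highest values were 0.58, 1.43 and 3.55. The groups overlapped, with 2 of 7 cryptorchid libraries above the highest control and 2 of 5 controls below the lowest cryptorchid library. This is a log2 difference of 0.85 with a standard error of 0.686, and of 1.07 and 0.27 within the library sets. Each library had between 7 and 60 reads of this gene.

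*Ifih1*, which encodes MDA5, was the most scattered of the cytosolic sensors. Its control values were 3.68, 2.21, -2.35, -0.87 and 0.83 log2 RPM, and its cryptorchid values had a lowest of -2.34, a median of 1.24 and a highest of 2.65. High and low libraries stood in both groups, and the highest library of all was a control. Between the groups its log2 difference was -0.09, with a standard error of 1.11, and its sign was not the same in the library sets (-0.91 and 0.89). *Ddx58* had reads in every library and *Ifih1* in all but 1, at 2.2 and 4.0 RPM on average in control and at 4.41 and 2.68 RPM in cryptorchid libraries.

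*Mavs*, the mitochondrial adaptor shared by RIG-I and MDA5, had 47 to 1024 reads per library. Control libraries held 5.39, 4.18, 4.75, 5.27 and 5.04 log2 RPM, and cryptorchid libraries had a lowest of 3.34, a median of 4.25 and a highest of 5.36. This gave a log2 difference of -0.60, with a standard error of 0.358. Within replicates 1 to 3 it was -0.06, and within replicates 4 and above it was -1.12, where *Mavs* was called lower when those libraries were fitted alone.

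Of the transcription factors at the end of both routes, *Irf3* was abundant and *Irf7* was near the limit of detection. *Irf3*, which is made constitutively in most cells and is activated by phosphorylation, averaged 4.81 ± 0.943 log2 RPM (SD, n = 5) among controls and 4.51 ± 0.816 (SD, n = 7) among cryptorchid libraries. Its log2 difference was -0.30 with a standard error of 0.459, and it was 0.39 within replicates 1 to 3 and -0.93 within replicates 4 and above. Its exons share 88 bases (3.43%) with *Bcl2l12* on the other strand.

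*Irf7*, itself an interferon-induced gene, had -3.61, -0.85, 1.17, -2.61 and 0.83 log2 RPM in control replicates 1 to 5, from 0 to 23 reads. Its cryptorchid values had a lowest of -2.21, a median of 0.33 and a highest of 1.14 log2 RPM, from 1 to 48 reads. Its log2 difference was 0.83 with a standard error of 1.02. The controls in which *Irf7* was low, replicates 1, 2 and 4, were also those in which *Tlr3* was low, and its Pearson's *r* with *Tlr3* over the 12 libraries was 0.65, the highest among the other 9 genes. After the group means were removed it was 0.70. Over all genes tested, 891 had a higher *r* with *Tlr3* than *Irf7*, *Tlr3* itself among them. Control replicates 1, 2 and 4 had 2, 16 and 0 reads of *Irf7* and 2, 16 and 1 reads of *Tlr3*. No cryptorchid library lay above the highest control for *Irf7*.

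*Eif2ak2*, the gene of the translation-stopping kinase PKR, was not called. Controls averaged 2.98 ± 0.742 log2 RPM (SD, n = 5) and cryptorchid libraries 3.17 ± 0.867 (SD, n = 7), a log2 difference of 0.19 with a standard error of 0.523. Cryptorchid replicate 1 stood apart at 1.35 log2 RPM, below the other cryptorchid libraries at 3.02 to 4.06.

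*Adar* had the narrowest spread of the 10 genes and the highest level. Control libraries held 6.46, 5.82, 6.46, 6.29 and 5.88 log2 RPM, and cryptorchid libraries had a lowest of 5.60, a median of 5.88 and a highest of 6.23. Groups differed by a log2 of -0.29 with a standard error of 0.235, and this was -0.34 and -0.19 within the library sets. Exons of *Chrnb2* on the other strand cover 1365 bases of *Adar* (22.8% of its exon length), so part of this level could not be assigned to 1 gene.

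*Zbp1*, the sensor of left-handed helices, was the gene with the lowest difference. In control replicates 1 to 5 its level was 0.09, -0.85, -0.77, 1.71 and 1.53 log2 RPM, from 26, 16, 6, 18 and 13 reads. Among cryptorchid libraries, replicate 1 had 3 reads (-2.89 log2 RPM), replicate 4 had 5 reads (0.11 log2 RPM) and the other 5 had no read. Every control library thus had *Zbp1* reads, and 6 of the 7 cryptorchid libraries lay below the lowest control. Controls averaged 0.34 ± 1.22 log2 RPM (SD, n = 5) and cryptorchid libraries -2.33 ± 1.22 (SD, n = 7), a log2 difference of -2.67 with a standard error of 0.894. The cryptorchid mean and SD include the 5 libraries without a read, whose values, from -3.63 to -1.92 log2 RPM, are set by library depth. Mean levels were 1.67 and 0.173 RPM, a ratio of control to cryptorchid of 9.65 that rests on few reads. The log2 difference was -2.74 within replicates 1 to 3 and -3.25 within replicates 4 and above, and it stayed between -3.07 and -2.33 when any 1 of the 12 libraries was left out. *Zbp1* lies at chr2:173206612-173218923 on the minus strand of GRCm38, and none of its exons overlaps another annotated gene.

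The summed levels of several marker lists moved with *Zbp1*. Of 8 spermatid genes, 4 fell in the cryptorchid libraries (*Prm1*, *Prm2*, *Odf1* and *Tssk6*, which encode protamines, a tail protein and a kinase of sperm formation). The summed level of the 8 was 507 to 2750 RPM in control and 14.5 to 1808 RPM in cryptorchid libraries. Its Pearson's *r* over the 12 libraries, which share group and library, was 0.76 with *Zbp1* and -0.28 with *Tlr3*. For 7 spermatocyte genes, none of them called, it was -0.13 with *Zbp1*. The summed level of peritubular myoid genes had an *r* of 0.70 with *Zbp1*. It was 24.8 to 56.6 RPM in control and 4.1 to 45.7 RPM in cryptorchid libraries, with medians of 53.4 and 16.3 RPM. Of 5 tested 1 fell (*Actg2*, a smooth muscle actin) and 1 rose (*Des*). *Actg2* alone had medians of 38.1 and 6.68 RPM. The median log2 difference of the tested myoid genes was 0.56. *Acta2* had no read in 3 of 5 control and 3 of 7 cryptorchid libraries. Heat shock and immediate early genes had an *r* of -0.71 with *Zbp1*. Their summed level was 327 to 587 RPM in control replicates 1 to 3 and 192 to 219 RPM in replicates 4 and 5. In cryptorchid libraries it was 493 to 1116 RPM in replicates 1 to 3 and 309 to 419 RPM in the later ones. As *Zbp1* values without a read are set by depth, this *r* cannot be separated from group, library set and depth. What part any of these lists had in the *Zbp1* values was not tested.

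**Figure D2:**
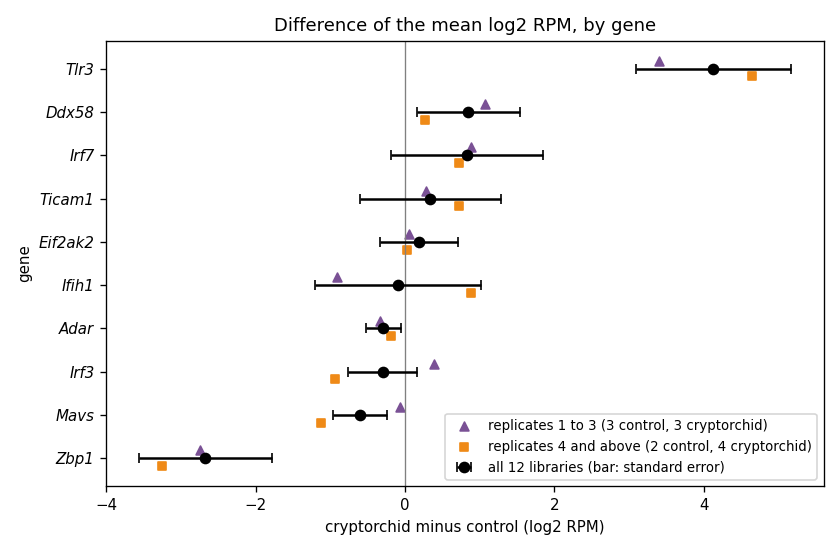
Difference of the mean log2 RPM, cryptorchid minus control (horizontal axis), for the 10 genes. Circles with bars are all 12 libraries with the standard error of the limma fit. Triangles are replicates 1 to 3 and squares are replicates 4 and above. *Tlr3* (4.13) and *Zbp1* (-2.67) keep their sign in both sets, whereas *Irf3* and *Ifih1* have opposite signs in the sets.

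Per kilobase of exon, *Adar*, *Irf3* and *Mavs* were the most abundant of the 10 in both groups, at 3.59, 3.45 and 3.30 log2 RPKM in control and 3.31, 3.15 and 2.70 log2 RPKM in cryptorchid libraries. Their SDs (0.234 to 0.943) exceeded most of the steps between them, so their order is not resolved. *Eif2ak2* followed in control libraries with 0.87 ± 0.742 log2 RPKM (SD, n = 5). The other 6 lay below 0 in control libraries, between -0.77 (*Zbp1*) and -2.43 (*Tlr3*), with SDs of 0.849 to 3.16 that overlap throughout.

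By the mean of log2 values, *Tlr3* stood at the bottom of these 6 in control libraries and was the fourth highest of the 10 in cryptorchid libraries, at 1.70 ± 0.957 log2 RPKM (SD, n = 7), next to *Eif2ak2* at 1.06 ± 0.867. Its control place depends on the scale: by the mean RPM per kilobase, *Tlr3* was the fifth of the 10 in control libraries, at 0.83, and again the fourth in cryptorchid libraries, at 3.74. *Zbp1* was the lowest in cryptorchid libraries on both scales, at -3.44 ± 1.22 log2 RPKM (SD, n = 7), with 5 of the 7 libraries without a read.

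**Figure D3:**
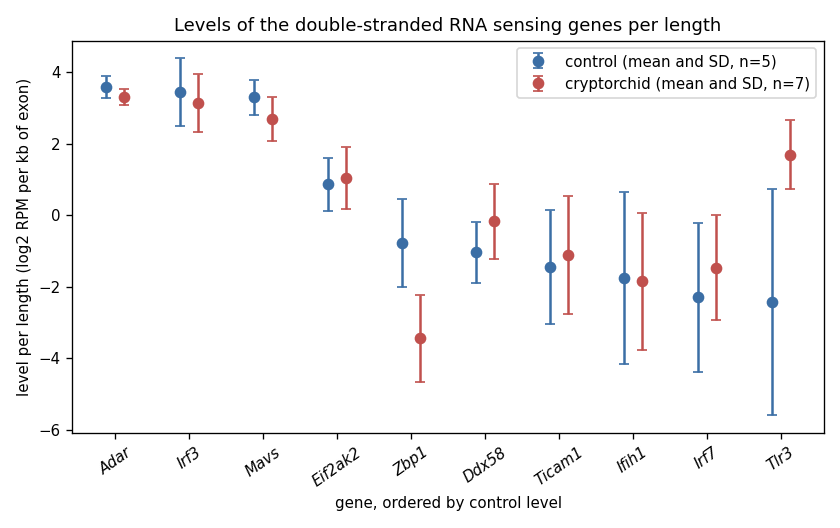
Mean level per kilobase of exon in log2 RPKM (vertical axis) with the SD, for control (n = 5) and cryptorchid (n = 7) libraries, in order of the control level. On this scale *Tlr3* is at -2.43 in control and 1.70 in cryptorchid libraries, and *Zbp1* is at -0.77 and -3.44; the SDs of the 6 lowest control levels overlap.

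Across the 12 libraries, the genes whose log2 RPM followed *Tlr3* most closely were *Pkd1l1*, *Mettl25*, *Efhb*, *Stard13*, *Thap2* and *Mfhas1*, with a Pearson's *r* of 0.96, 0.94, 0.92, 0.90, 0.90 and 0.90. *Pkd1l1* encodes a polycystin-family membrane protein. For these 6 genes *r* was 0.80 to 0.92 after the group means were removed, over libraries centred within their group. Spearman's rank correlation was 0.45 to 0.88, lower than *r*. The libraries share depth and group, and the values are descriptions of likeness only.

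Their differences between the groups were smaller than that of *Tlr3*. The log2 difference was 2.34 for *Mfhas1*, 1.60 for *Pkd1l1*, 1.26 for *Thap2*, 1.0 for *Efhb*, 0.95 for *Stard13* and 0.45 for *Mettl25*. Among the double-stranded RNA sensing genes, *Irf3* (-0.61), *Mavs* (-0.54) and *Zbp1* (-0.53) had the most negative *r* with *Tlr3*.

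The wider pathway was read from 8 gene lists with 137 genes, of which 134 were in the table and 116 passed the limit on low levels. Of the 116, 2 were called higher (*Irf2* and *Prkra*), 3 were called lower (*Rnf125*, *Cmpk2* and *Mlkl*) and 111 were not called. Their median log2 difference was 0.13, beside 0.10 over all genes. These 2 higher and 3 lower of 116 stand beside 3.56% higher and 2.36% lower over all genes. As the lists were chosen with earlier results of these data known, nothing is read from these counts. None of the 5 reached an adjusted *P*-value under 0.05.

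Of the 6 other interferon regulatory factors, 1 was called higher and 5 were not called. *Irf2*, a factor that can oppose IRF1 at interferon-responsive promoters, had 3.55, 3.74, 3.36, 2.50 and 3.18 log2 RPM in control replicates 1 to 5. In cryptorchid libraries its lowest, median and highest values were 4.12, 5.12 and 5.56, so every cryptorchid library lay above every control. The same held for 0.555% of all genes tested. The log2 difference of *Irf2* was 1.83 with a standard error of 0.349 (limma, adjusted *P*=0.104), and it was 1.72 and 2.12 within the library sets.

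The list of the interferon receptor, its signalling and its targets is given without 1 gene, which is not reported here. Of the 21 other tested genes, 0 were called higher in limma and 1 was called lower. This was *Cmpk2*, a mitochondrial nucleotide kinase that interferon induces. Its control libraries lay between 0.60 and 2.06 log2 RPM, and its cryptorchid libraries comprised 3 libraries at 1.40 to 1.55 and 4 at -2.38 or below. The log2 difference was -2.35 with a standard error of 1.02 (limma, adjusted *P*=0.479). The call was lost without control replicate 2, 3, 4 or 5 or cryptorchid replicate 1, 2, 3 or 7, with log2 differences from -2.35 to -1.97. Within replicates 1 to 3 the log2 difference was -4.07, and within replicates 4 and above it was -1.22, where the call was lost. The median of the list was -0.02, and 10 of the 21 had a higher mean in cryptorchid libraries.

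Among 18 tested RNA sensors and cofactors, *Prkra* was called higher and the other 17 were not called. It encodes PACT, a protein that binds double-stranded RNA and activates PKR. Its log2 difference was 1.36 with a standard error of 0.572 (limma, adjusted *P*=0.469), with control libraries at 0.65 to 3.61 and cryptorchid libraries at 2.57 to 4.77 log2 RPM. The call was lost without control replicate 2 (1.19) or 3 (0.94) and without cryptorchid replicate 5 (1.18) or 7 (1.21). It was also lost within each library set, at 1.42 in replicates 1 to 3 and 0.82 in replicates 4 and above. The median of this list was 0.35.

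Of the 10 inhibitors of double-stranded RNA signalling, 1 was called lower and 9 were not called. *Rnf125*, a ubiquitin ligase that marks RIG-I, MDA5 and MAVS for degradation, had 3.85, 3.28, 4.03, 4.24 and 4.23 log2 RPM in control libraries and a lowest, median and highest of 1.04, 2.34 and 4.04 in cryptorchid libraries. The groups overlapped through cryptorchid replicate 7, and 6 of 7 cryptorchid libraries lay below the lowest control. This is a log2 difference of -1.60 with a standard error of 0.536 (limma, adjusted *P*=0.359). It was -1.48 within replicates 1 to 3, where the call was lost, and -1.85 within replicates 4 and above.

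Of 23 signalling proteins downstream of TICAM1 and MAVS, *Mlkl* was called lower and 22 were not called. MLKL is the membrane-breaking protein of necroptosis, which ZBP1 and TICAM1 can both start through RIPK3. Its log2 difference was -1.71 with a standard error of 0.812 (limma, adjusted *P*=0.527). Control libraries were at -1.46 to 1.66 log2 RPM from 2 to 91 reads. Cryptorchid libraries were at -2.38 to -0.26 from 0 to 7 reads, 3 of them without a read. *Mlkl* passed the limit on low levels through its control libraries, because its mean in the cryptorchid libraries alone, 0.32 RPM, was below that limit. The call was lost without control replicate 1, 2, 3 or 5 or cryptorchid replicate 1, 2, 5, 6 or 7, with log2 differences from -1.81 to -1.35, and within both library sets, at -1.76 and -1.29.

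None of the 16 tested Toll-like receptors and partners was called. Their median log2 difference was 0.10, with a range of -1.15 (*Cd14*) to 1.44 (*Tlr1*). Of the 24 listed, *Tlr2*, *Tlr6*, *Tlr7*, *Tlr8*, *Tlr9*, *Tlr11*, *Tlr13* and *Ly96* fell below the limit on low levels and were not tested. Without that limit *Tlr6*, *Tlr7* and *Tlr8* were called higher, in a fit whose median log2 difference over all genes was 0.23. A library without a read has a value set by its depth. Median reads on genes were 7603202 in control and 4611830 in cryptorchid libraries, so values without a read tended to be lower in controls. None of the 15 eIF2 kinases and genes that respond to eIF2 phosphorylation was called (median -0.14). The same held for the 7 RNA adenosine deaminases and relatives other than *Adar* (median 0.25). Whether any of these genes differed from *Tlr3* in its response was not tested.

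**Figure D4:**
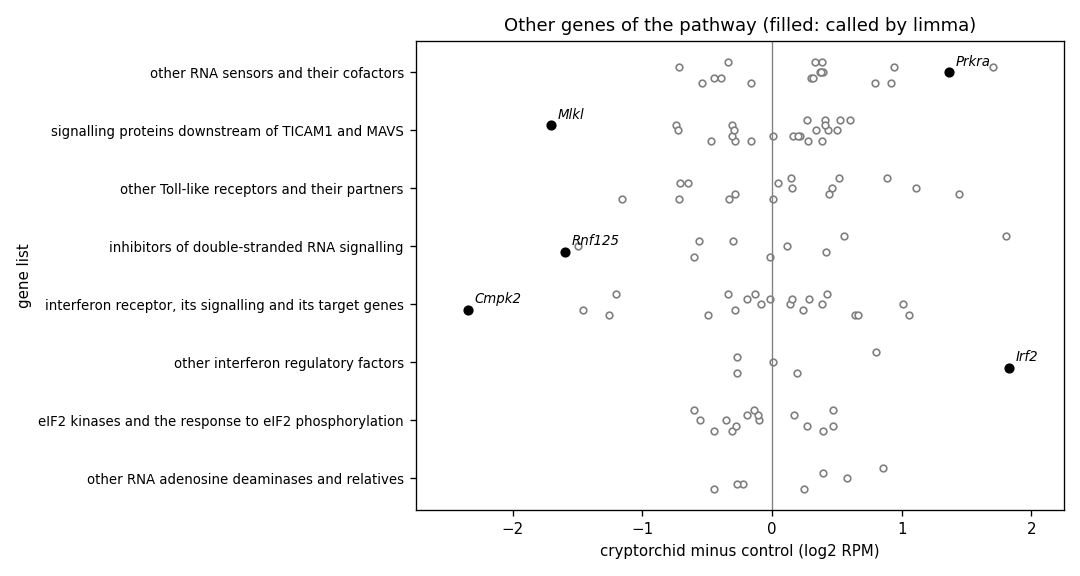
Log2 difference, cryptorchid minus control (horizontal axis), of the 116 tested genes in the 8 lists of the wider pathway. Each circle is a gene, and the 5 filled and named circles passed limma at 2-fold and an unadjusted *P*-value under 0.05; 2 lie to the right of 0 and 3 to the left.

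**Figure D5:**
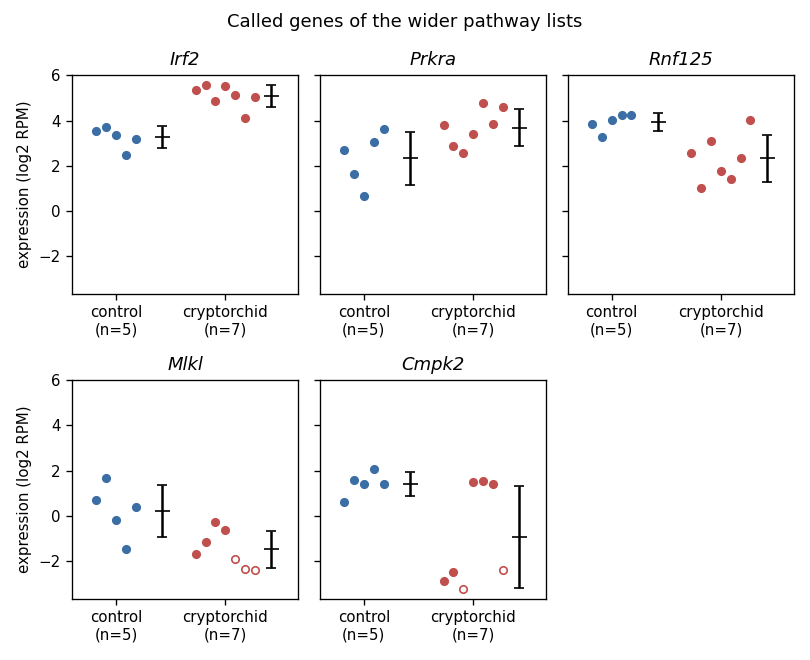
Expression in log2 RPM (vertical axis) of the 5 called genes of the wider pathway in 5 control and 7 cryptorchid libraries, with the mean and SD beside each group; open circles are libraries without a read. The groups do not overlap for *Irf2* and overlap for the other 4.

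*Tlr3* and interferon genes are also expressed by immune, endothelial and Sertoli cells, so markers of cells outside the germ line were read beside them. Of 8 tested macrophage and dendritic cell genes, 1 rose (*Mrc1*, a mannose receptor). Their summed level was 5.09 to 30.9 RPM in control and 16.9 to 45.2 RPM in cryptorchid libraries, and its Pearson's *r* with *Tlr3* was -0.13 over the 12 libraries. *Csf1r*, *Cd68*, *Flt3* and *Mrc1* had reads in every library, *Csf1r* with medians of 7.28 RPM in control and 7.71 RPM in cryptorchid libraries. In contrast, *C1qa* had no read in 4 of 5 control and 5 of 7 cryptorchid libraries, and *Clec9a* and *Xcr1* had none in 5 of 5 control and 6 of 7 cryptorchid libraries.

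Of 7 endothelial genes, 3 rose (*Cdh5*, *Vwf* and *Tie1*). *Tie1* had no read in 4 control libraries and 1 cryptorchid library. The summed level was 25.7 to 49.2 RPM in control and 36.9 to 71.4 RPM in cryptorchid libraries. Its median was 40.3 RPM in each group. Control and cryptorchid medians were 15.8 and 11.4 RPM for *Egfl7* and 0.139 and 0 RPM for *Emcn*. For *Pecam1* and *Tek* the cryptorchid median was the higher one, and none of these other genes was called. None of 8 tested Sertoli cell genes was called, with sums of 43.9 to 232 and 39.6 to 252 RPM. Of 10 heat shock and immediate early genes, 1 rose (*Hsph1*), with sums of 192 to 587 and 309 to 1116 RPM. The cryptorchid median was also the higher one for *Dnajb1*, *Hspb1*, *Junb* and *Atf3*. It was the lower one for *Egr1*, *Fos*, *Jun*, *Hspa1a* and *Hspa1b*. By summed level, the marker lists with the strongest *r* with *Tlr3* were differentiating spermatogonia (-0.58), undifferentiated spermatogonia (0.52) and peritubular myoid cells (-0.50). Among the 7 genes of differentiating spermatogonia, *Dnmt3b* and *Rarg* were lower and *Stra8* was higher. In controls, much of the myoid sum was *Actg2*. The part of these cells or of heat shock in the values of *Tlr3* and *Irf2* was not tested.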

How the data were processed

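RNA was measured by Smart-seq2 in 12 libraries of sorted GFRa1+/KIT- spermatogonia, 5 control and 7 cryptorchid, grouped by the sample titles. The authors trimmed reads with Trim Galore 0.6.6, mapped them to mm10 with HISAT2 2.1.0 (versions from the submitters' processing notes), used SeqMonk to count reads on protein-coding genes, and the values they deposited are log2 RPM. The strand setting of the counting is not given in the sources used here. No source used here says which libraries come from 1 mouse, and *P*-values measure the spread between these libraries. Numbers of reads were recovered here from the steps between low values, which were whole within 0.1 reads for values under 1000 reads.

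The deposited log2 values of 16932 genes, those whose mean RPM had a log2 above -1, were fitted with a mean-variance trend in limma 3.58.1 (R 4.3.3). A call needed a 2-fold difference and a two-sided *P*-value under 0.05 before adjustment, and *P*-values were adjusted over all genes tested. As the deposited values are not counts, no count model was the main test. The script was tested on simulated data. Replicates of a group differed by more than sampling noise in each of 31 pairs (chi-square per gene of 12.8 to 253). RPKM values were RPM divided by the exon length in GENCODE vM21 on GRCm38. Promoters are from RefSeq on GRCm38.p6.

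The genes, lists and library sets were chosen with earlier results of these data known. Named genes are the 10 members, the called genes of each list (at most 4 per list) and the 6 genes with the highest *r* with *Tlr3*. Called or defining markers are also named. Some others are named where they end a range, fell below the limit, were called in an alternative or show a marker list's spread. Of the lists, 1 gene is not reported here. The 11 marker lists that were read also cover differentiating spermatogonia (1 of 7 genes called higher, 2 lower), spermatocytes (0 of 7), Leydig cells (0 of 3 tested), peritubular myoid cells (1 of 5 tested higher, 1 lower) and lymphocytes (0 of 4 tested). The 25 alternatives were other scalings, pseudocounts and filters, a common floor, array weights, voom on recovered reads, the replicate block, a library-set term, each set alone and each library left out in turn.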

Additional observations from a re-analysis of the deposited data

Results flagged for a closer look

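Each group of 5 or 7 libraries was searched for a library whose gap to the nearest other library was wide for the range of the group, over the 10 genes, the 5 called genes of the wider pathway and the 6 genes most like *Tlr3*. Of 42 groups, 3 held such a library, and chance gives about 1 in 20.

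*Tlr3* in cryptorchid replicate 2 was at 2.01 log2 RPM, while the other cryptorchid libraries were at 3.66 to 4.72. *Ticam1* in control replicate 4 was at -2.61 log2 RPM, a library without a *Ticam1* read, while the other controls were at 0.44 to 1.53. *Eif2ak2* in cryptorchid replicate 1 was at 1.35 log2 RPM, while the other cryptorchid libraries were at 3.02 to 4.06.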

How the results depend on the processing

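*Tlr3*, *Zbp1* and the 5 called genes of the wider pathway kept the sign of their log2 difference under each of the 25 alternatives that tested them. Of 245 values of the 10 genes under the alternatives, 1 moved by more than 1 SD: *Zbp1*, at -1.10 with log2(RPM + 1). The log2 difference of *Tlr3* ran from 2.59 with log2(RPM + 1) to 5.13 without control replicate 3. *Ifih1*, which was not called, had the other sign in 8 alternatives, *Eif2ak2* in 2, and *Ticam1* and *Irf3* in 1 each. The 5 genes of the wider pathway kept their call in 88 of 123 values, *Irf2* in each. The number of genes higher was 385 with a filter at log2 of the mean RPM above 2 and 287 in replicates 1 to 3 alone. The number lower was 703 with array weights, 900 with the replicate block, 635 with a library-set term and 705 in replicates 4 and above alone. Of the 10 genes, 0 were higher and 0 lower in replicates 1 to 3 alone, 0 lower with the filter at 2, which left 5 of the 10 and removed *Zbp1*, and 2 lower (*Mavs* and *Zbp1*) in replicates 4 and above alone. Without a filter, 6 genes of the wider pathway were higher (*Irf2*, *Prkra* and, from below the limit, *Ifit3*, *Tlr6*, *Tlr7* and *Tlr8*). There were 4 higher with the replicate block, and 1 with array weights and in replicates 1 to 3 alone. Only 1 was lower with the filter at 2 and in replicates 1 to 3 alone. Leaving out each library in turn gave 1 to 3 higher and 1 to 3 lower. Beyond fewer libraries or fewer genes in the fit, the cause of these changes was not tested.

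The replicate block used the shared replicate numbers. Libraries with the same number deviated together with *r* of 0.35, 0.36, 0.41, 0.25 and 0.05 for numbers 1 to 5, and 4 of 5 correlated best with their own number, but nothing states that a number marks a shared mouse. With the replicate block limma called 382 genes higher and 567 lower at an adjusted *P*-value under 0.05, and with array weights 252 and 224. Of the 10 genes described, *Tlr3* alone was among those in both fits. Nothing is read from this, since *Tlr3* was chosen with this comparison in view. Few reads limit *Zbp1*, *Irf7*, *Ticam1* and *Ifih1*, which each had libraries without a read. In the wider pathway they limit *Mlkl* and *Cmpk2* in the same way.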
